A study of Homo sapiens with 15 samples.

Results

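The genes NSG1, ELAVL3, GRIN2C, CHRM4, DOC2B, ADCYAP1R1, IGSF9B, CABP7, ANKRD34B and VSTM2B, known mainly from neurons and synapses, were followed in a lung cancer cell line that expressed p53. They are 10 of the 61552 genes in each count table, read by Ensembl ID in all 15 libraries. They were chosen by their measured counts in these libraries, for large changes between groups, with no stated threshold. Which comparison was used is not stated, so all 4 below were treated as used. Differences of the 10 genes are therefore a description: where a gene is said to be called, the word gives its place in the fit of all genes and is no evidence of its own, and no p-value is printed for it. RNA-seq was done on H1299 cells, a human lung carcinoma line known to lack p53 protein, after overexpression of a construct. The libraries of 2023 came from cells with a control vector, labelled Ctrl, or with wild-type p53, labelled WT. In 2022 the construct was p53 or 1 of 2 constructs named LLPSEp53_1 and LLPSEp53_2 in the labels, and that year held no control vector. Each of the 5 groups had 3 libraries, and p53 replicate 2 is labelled as coming from another batch. The title of the series places the LLPSEp53 constructs in work on how readily p53 undergoes liquid-liquid phase separation. Vector, delivery, dose and time after delivery are not named in the sources used here, nor is it stated that replicates were separate cultures. A p-value given for another gene therefore reflects library-to-library spread that could be technical.

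p53 is a transcription factor that is kept low in unstressed cells by the ubiquitin ligase MDM2 and that, when active, binds response elements and raises the expression of genes for growth arrest, death and repair. The 10 genes act elsewhere in textbook biology. GRIN2C encodes a subunit of the NMDA-type glutamate receptor, CHRM4 the muscarinic acetylcholine receptor M4, which couples to inhibitory G proteins, and ADCYAP1R1 the receptor for the neuropeptide PACAP. NSG1 is an endosomal protein of neurons that takes part in receptor recycling, and DOC2B is a calcium sensor with C2 domains that acts in vesicle release. IGSF9B is an adhesion molecule of inhibitory synapses, and VSTM2B belongs to the immunoglobulin superfamily. CABP7 is an EF-hand calcium-binding protein, ELAVL3 an RNA-binding protein of the Hu family, and ANKRD34B an ankyrin repeat protein.

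Promoter sequences are shown for NSG1, CHRM4 and CABP7, because these differed in how they moved between the 2022 groups: NSG1 kept most of its p53 level with LLPSEp53_1, CABP7 kept least of these, and CHRM4 had the highest level per kilobase with p53. The windows run from 250 bases before to 50 bases after a RefSeq start site (build GRCh38.p14), 5′ to 3′ on the strand of the gene. Capitals mark the GC box GGGCGG on either strand (CCGCCC when read on the other strand), with overlapping boxes run together. The NSG1 window shown, from a pair for that gene, lies at chr4:4386852-4387151 (plus strand). The CHRM4 window lies at chr11:46391727-46392026 (minus strand) and the CABP7 window at chr22:29719753-29720052 (plus strand).
NSG1: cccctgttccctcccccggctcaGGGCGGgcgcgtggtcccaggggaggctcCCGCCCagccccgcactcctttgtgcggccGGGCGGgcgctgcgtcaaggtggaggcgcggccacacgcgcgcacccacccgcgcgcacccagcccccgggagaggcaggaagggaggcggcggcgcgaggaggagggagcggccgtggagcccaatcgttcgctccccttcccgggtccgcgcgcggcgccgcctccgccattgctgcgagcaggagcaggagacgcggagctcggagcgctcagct
CHRM4: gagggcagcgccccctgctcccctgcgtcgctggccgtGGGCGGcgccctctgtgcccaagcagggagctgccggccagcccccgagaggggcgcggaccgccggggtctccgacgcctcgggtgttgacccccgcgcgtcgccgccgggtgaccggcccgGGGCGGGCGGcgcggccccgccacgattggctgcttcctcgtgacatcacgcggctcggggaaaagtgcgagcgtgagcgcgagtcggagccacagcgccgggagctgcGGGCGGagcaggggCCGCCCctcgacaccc
CABP7: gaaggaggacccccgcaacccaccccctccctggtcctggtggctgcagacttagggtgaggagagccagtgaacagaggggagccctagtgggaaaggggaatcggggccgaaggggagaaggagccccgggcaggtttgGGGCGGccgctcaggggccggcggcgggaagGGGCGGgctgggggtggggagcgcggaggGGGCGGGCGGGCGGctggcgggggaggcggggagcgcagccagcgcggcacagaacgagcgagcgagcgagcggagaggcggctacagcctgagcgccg
RefSeq entries were found for 6 of the 10 genes, giving 8 windows: a pair each for NSG1 and VSTM2B, and 1 each for CHRM4, CABP7, ADCYAP1R1 and ANKRD34B. These windows were rich in G and C. Their GC content ran from 66.3% to 78.3%, against a median of 58.7% over all 35116 windows of the same length, and they held 24 to 44 CpG dinucleotides, against a median of 14. The GC box was found in 7 of 8, against 45.0% of all windows, and the CHRM4 and CABP7 windows held 5 each. The E-box CANNTG was found in 2 of 8 (68.7% of all windows) and the TATA box TATAAA in 1 of 8 (11.5%). The window with no GC box and the window with the TATA box were the same. It is the other NSG1 window, at chr4:4386282-4386581, which is not shown. The consensus half-site of p53, 10 bases long, was in none of the 8 and in 6.63% of all windows, which says only that these letters are not in the windows searched. Both strands were searched, and such a match is a string of letters, not a shown binding site.

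Libraries of 2023 held 16208538 to 19228748 counts and those of 2022 held 13535397 to 16438272. At this depth 3 counts, taken as the limit that a count of 0 allows, equal 0.156 to 0.222 CPM, the unit of all levels below. CPM are counts scaled to the size of the library, within each year, so values of different years are set side by side and never tested. Because p53 replicate 2 is labelled as another batch, the fit of 2022 carried a term for it, and p53 replicates 1 and 3 alone (n = 2) set the p53 level. CDKN1A, the p21 cell cycle inhibitor gene, was 242 ± 10.4 CPM in Ctrl, 758 ± 37.9 in WT, 424 ± 26.1 with LLPSEp53_1 and 261 ± 25.7 with LLPSEp53_2 (SD, n = 3 each), and 285 ± 1.46 with p53 (SD, n = 2). The 5 marker genes of H1299 (VIM, KRT8, KRT18, AXL, ZEB1) summed to between 3807 and 6958 CPM, while 3 of the 4 markers of lung epithelium were under 1 CPM in every group and blood markers summed to at most 0.353 CPM. The mitochondrial share of counts was 0.680% in Ctrl replicate 1 and 1.38% to 2.21% elsewhere.

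The summed levels of the 10 genes were lowest in Ctrl, at 7.80 to 9.06 CPM, and 29.3 to 35.7 CPM in WT. In 2022 they were 109.99 and 103 CPM in p53 replicates 1 and 3, 34.1 to 40.6 CPM with LLPSEp53_1 and 28.2 to 33.7 CPM with LLPSEp53_2. The other-batch p53 library had the highest sum, 186 CPM. By this sum the groups of each year were apart, with all WT libraries above all Ctrl libraries and all LLPSEp53 libraries below both p53 libraries. A sum is weighted to the genes with the highest levels, in WT NSG1 (mean 10.1), CHRM4 (8.71) and IGSF9B (5.11 CPM). The WT libraries of ELAVL3, ANKRD34B and VSTM2B overlapped those of Ctrl.

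**Figure D1:**
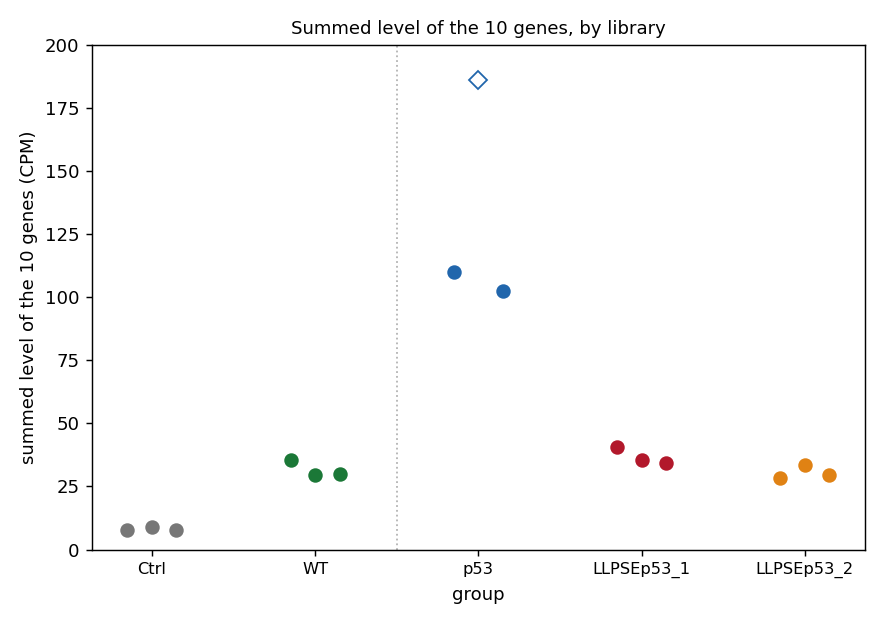
Summed level of the 10 genes (CPM) in each of the 15 libraries, by group; 2023 lies left and 2022 right of the dotted line, the years were scaled separately, and the open diamond is p53 replicate 2. The p53 libraries of the shared batch sum to 109.99 and 103 CPM and the LLPSEp53 libraries to between 28.2 and 40.6 CPM.

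In WT against Ctrl, 6 of the 9 genes that passed the filter on low counts were past the threshold of the edgeR test (adjusted p of 0.05 over all genes tested), all higher: NSG1, GRIN2C, CHRM4, DOC2B, ADCYAP1R1 and IGSF9B. Of the 16156 genes tested, 3.24% were called higher and 0.873% lower. The libraries of both groups did not overlap for those 6 genes and CABP7, against 12% of all genes with WT higher and 10.5% with WT lower. VSTM2B did not pass the filter. The filter needs enough counts in as many libraries as a group holds, so a gene near 0 in Ctrl could pass through WT, and these counts describe the choice of genes rather than support it. Against p53, LLPSEp53_1 had 9 of 10 genes called lower, where 0.836% of 17459 genes were called lower and 0.0515% higher. NSG1 was the exception. LLPSEp53_2 had 10 of 10 called lower, where 1.83% of all genes were called lower and 0.103% higher. All 10 genes had non-overlapping libraries in both comparisons, with 14.7% of all genes non-overlapping and lower with LLPSEp53_1 and 12.2% higher, and 17.5% lower and 15.6% higher with LLPSEp53_2. Both comparisons share the same p53 libraries. The median log2 change of the genes was 1.52 in WT against Ctrl (9 genes), -1.89 with LLPSEp53_1 and -1.92 with LLPSEp53_2 against p53, beside medians over all genes of -0.01, -0.0001 and 0.006.

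These counts rest on few libraries. With p53 replicate 1 or 3 left out, the p53 arm is a single library in its batch, and its spread is taken from the other groups. Without p53 replicate 3, LLPSEp53_1 against p53 had 0 genes of any kind called by edgeR, with 4.96% of all genes higher and 4.15% lower at an unadjusted p under 0.05. Without p53 replicate 1, 5 of the 10 genes were called lower, as were 0.156% of all genes, and without LLPSEp53_1 replicate 2, 3 of the 10 and 0.0666% of all genes. DESeq2 on all libraries called 9 of the 10 and 1.23% of all genes lower. For LLPSEp53_2, 5 of the 10 and 0.70% of all genes were called lower without p53 replicate 1, and 6 of the 10 and 0.480% of all genes without p53 replicate 3.

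**Figure D2:**
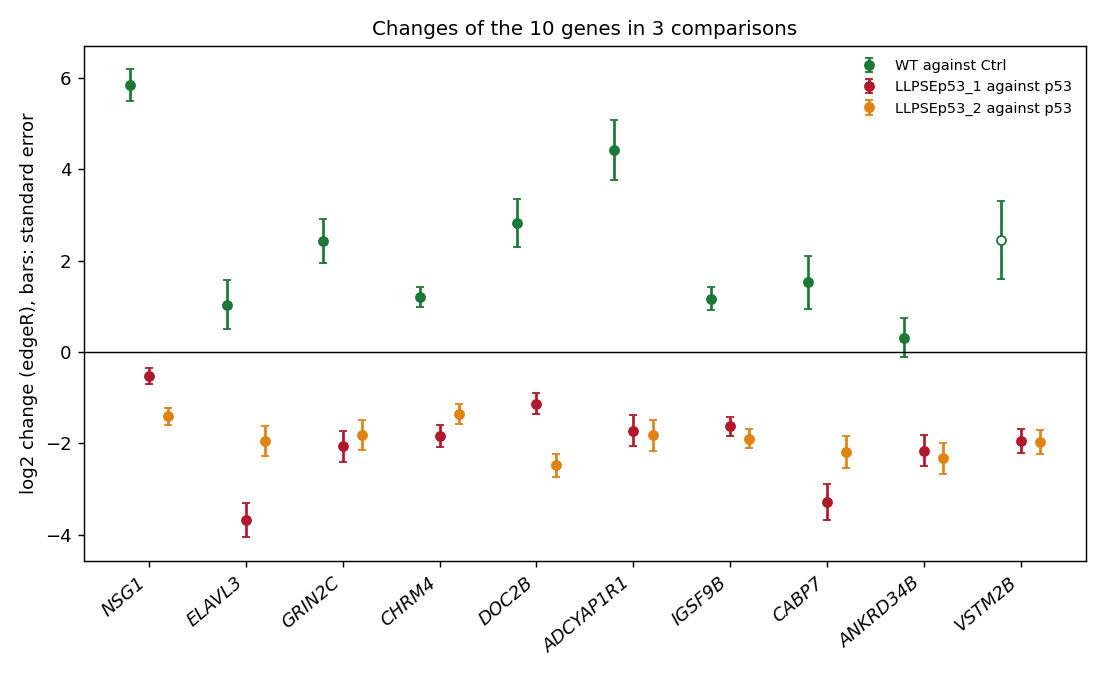
Log2 change of each gene in WT against Ctrl, LLPSEp53_1 against p53 and LLPSEp53_2 against p53 (edgeR estimate). Bars are standard errors derived from the test statistic, which can be too small where 1 group had few counts. The open circle for VSTM2B is from the fit without a filter on low counts. Changes in WT run from 0.32 for ANKRD34B to 5.84 for NSG1, and the LLPSEp53 changes from -3.68 for ELAVL3 to -0.53 for NSG1.

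The receptor genes come first. GRIN2C (ENSG00000161509, GRCh38 chromosome 17, 74842023 to 74861504, minus strand) was at 0.355, 0.225 and 0.217 CPM in the Ctrl libraries and at 1.60, 0.902 and 1.88 CPM in the WT libraries. Every WT library was above every Ctrl library, and the WT values spread more widely than those of Ctrl. On the log2 scale the difference was 2.44 ± 0.48 (SE), a 5.43-fold difference that rests on 75 counts against 14. The exact 95% interval of the ratio from these summed counts, 3.12 to 10.7, covers counting error only. In 2022, GRIN2C was at 5.75 and 7.63 CPM in p53 replicates 1 and 3, at 1.46, 1.14 and 2.15 CPM with LLPSEp53_1 and at 1.17, 1.75 and 2.77 CPM with LLPSEp53_2. Both LLPSEp53 groups lay below p53 and overlapped each other. The log2 changes from p53 were -2.06 ± 0.34 and -1.82 ± 0.34 (SE), so that 23.7% and 28.3% of the p53 level was left. FDXR, a ferredoxin reductase gene on the same strand whose 3′ end lies 993 bases before the GRIN2C start, stood at 20.5 CPM in Ctrl, 68.4 in WT, 16.0 with p53, 30.5 with LLPSEp53_1 and 16.9 with LLPSEp53_2. Its rise in WT was 1.74 on the log2 scale (edgeR adjusted p = 1.19e-09), and its 2022 level was highest with LLPSEp53_1. Its part in the GRIN2C counts was not tested.

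CHRM4 (ENSG00000180720, chromosome 11, 46385098 to 46386608, minus strand) was already present in Ctrl, at 2.96, 5.01 and 3.36 CPM. In WT it was at 9.52, 9.38 and 7.23 CPM, above every Ctrl library. The log2 change was 1.20 ± 0.22 (SE), 2.30-fold, from 445 counts against 201 (ratio interval 1.94 to 2.73). In 2022 the p53 libraries held 10.99 and 13.96 CPM, LLPSEp53_1 2.42, 4.09 and 3.94, and LLPSEp53_2 4.81, 5.44 and 4.40. The 3 groups were apart, with p53 highest and LLPSEp53_1 lowest. The level was 27.9% of that with p53 for LLPSEp53_1 (log2 change -1.83 ± 0.23, SE) and 39.1% for LLPSEp53_2 (-1.35 ± 0.23, SE).

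ADCYAP1R1 (ENSG00000078549, chromosome 7, 31052461 to 31111479, plus strand) was near the limit of detection in Ctrl, with 3, 1 and 0 counts, or 0.177, 0.0563 and 0 CPM. WT held 42, 16 and 33 counts, or 2.41, 0.962 and 1.94 CPM, so the groups did not overlap. This is a log2 change of 4.43 ± 0.65 (SE). The ratio from the summed counts of 91 and 4 was 23.7, with an exact 95% interval of 8.93 to 88.7, and its size is therefore loosely bounded. In 2022 the p53 libraries stood far from each other, at 9.14 and 4.78 CPM, beside 2.71, 2.41 and 1.23 CPM with LLPSEp53_1 and 1.85, 2.20 and 1.82 CPM with LLPSEp53_2. The log2 changes were -1.72 ± 0.34 and -1.82 ± 0.34 (SE), leaving 30.4% and 28.1% of the p53 level.

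ADCYAP1, which encodes PACAP, the ligand of that receptor, is not among the 10 and was read with its own test. Its Ctrl libraries held 0.532, 0.450 and 0.380 CPM and its WT libraries 1.60, 1.56 and 1.82 CPM, a rise of 3.64-fold (edgeR adjusted p = 0.00652, and 0.0609 without Ctrl replicate 3). With p53 it was 6.71 and 5.40 CPM, with LLPSEp53_1 1.76, 2.75 and 2.03 CPM and with LLPSEp53_2 2.59, 3.76 and 2.20 CPM. It fell 2.77-fold with LLPSEp53_1 (adjusted p = 0.0337), a call lost without p53 replicate 1, p53 replicate 3 or LLPSEp53_1 replicate 2. For LLPSEp53_2 the log2 change was -1.09 ± 0.28 (SE) with an adjusted p of 0.0748. Ligand and receptor RNA were thus both higher in every WT library than in any Ctrl library, and both lower with each construct than in either p53 library.

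Among the genes of trafficking and release, NSG1 (ENSG00000168824, chromosome 4, 4348140 to 4419058, plus strand) had the widest span. The Ctrl libraries held 2, 6 and 1 counts, which is 0.118, 0.338 and 0.0542 CPM, and the WT libraries 191, 157 and 169 counts, which is 10.9, 9.44 and 9.94 CPM. The WT values lay close together and far above Ctrl. Their log2 change was 5.84 ± 0.35 (SE), 57.3-fold. The ratio of the summed counts, 517 and 9, had an exact 95% interval of 31.2 to 131, wider than that SE implies. In 2022, NSG1 was at 21.6 and 15.1 CPM with p53, at 13.5, 12.1 and 12.6 CPM with LLPSEp53_1 and at 7.09, 6.67 and 6.98 CPM with LLPSEp53_2. The libraries of each LLPSEp53 construct were nearly level, and all 3 groups were apart. LLPSEp53_1 kept 69.5% of the p53 level, the largest share among the 10 genes with either construct, and LLPSEp53_2 kept 37.7%. The log2 changes were -0.53 ± 0.18 and -1.41 ± 0.19 (SE). The 3′ end of STX18, on the opposite strand, overlaps the NSG1 gene by 3317 bases, and its log2 changes were -0.0004 in WT, 0.06 with LLPSEp53_1 and -0.02 with LLPSEp53_2.

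DOC2B (ENSG00000272636, chromosome 17, 142789 to 181636, minus strand) was at 0.355, 0.169 and 0.0542 CPM in Ctrl and at 1.26, 1.44 and 1.47 CPM in WT. The groups did not overlap, and the log2 change was 2.83 ± 0.52 (SE) from 71 counts against 10 (ratio 7.38, interval 3.79 to 16.1). With p53 it was at 9.71 and 8.13 CPM. With LLPSEp53_1 it was at 5.13, 3.28 and 3.88 CPM, and with LLPSEp53_2 at 1.79, 1.36 and 1.63 CPM. DOC2B stepped down over the 3 groups without overlap, to 45.9% of the p53 level with LLPSEp53_1 (log2 change -1.13 ± 0.24, SE) and 17.9% with LLPSEp53_2 (-2.48 ± 0.25, SE).

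The adhesion genes had unlike starting levels. IGSF9B (ENSG00000080854, chromosome 11, 133908564 to 133956985, minus strand) was at 1.95, 2.25 and 2.60 CPM in Ctrl and at 6.42, 4.51 and 4.41 CPM in WT, with no overlap. The log2 change was 1.17 ± 0.25 (SE), from 262 counts against 121 (ratio 2.25, interval 1.81 to 2.82). In 2022 the p53 libraries agreed closely, at 23.5 and 22.9 CPM, and the constructs lay at 9.66, 6.70 and 6.22 CPM (LLPSEp53_1) and at 5.24, 7.32 and 6.16 CPM (LLPSEp53_2). These are 32.5% and 26.9% of the p53 level, with log2 changes of -1.63 ± 0.21 and -1.89 ± 0.21 (SE), and the ranges of the constructs overlap.

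VSTM2B (ENSG00000187135, chromosome 19, 29526499 to 29564479, plus strand) had 0, 2 and 3 counts in Ctrl and 11, 2 and 15 in WT. WT replicate 2 lay within the Ctrl range, and 0.120 CPM in that library is below the 3-count limit. Without the filter, the log2 change was 2.46 ± 0.85 (SE). For counting error only, the ratio of the summed counts, 28 and 5, had an exact 95% interval of 2.22 to 19.3. In 2022 the gene was well detected. It was at 6.90 and 10.8 CPM with p53, 2.49, 2.28 and 2.09 CPM with LLPSEp53_1 and 2.28, 2.72 and 1.82 CPM with LLPSEp53_2. The constructs left 25.8% and 25.7% of the p53 level, with log2 changes of -1.95 ± 0.26 and -1.96 ± 0.26 (SE).

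CABP7, the calcium sensor (ENSG00000100314, chromosome 22, 29720084 to 29731839, plus strand), was at 0.177, 0.0563 and 0.597 CPM in Ctrl and at 0.917, 0.842 and 0.706 CPM in WT. The groups were apart by a small margin, from 0.597 to 0.706 CPM, or 11 and 12 counts. The log2 change was 1.52 ± 0.58 (SE), short of the threshold in the fit of all genes. From 42 counts against 15, the ratio interval, for counting error only, was 1.58 to 5.65. With p53 it was at 6.14 and 5.64 CPM, with LLPSEp53_1 at 0.439, 0.469 and 0.862 CPM and with LLPSEp53_2 at 0.925, 2.01 and 0.943 CPM. LLPSEp53_1 kept 10.02% of the p53 level (log2 change -3.28 ± 0.39, SE) and LLPSEp53_2 21.9% (-2.19 ± 0.35, SE). ZMAT5 on the opposite strand overlaps CABP7 by 884 bases and had log2 changes of -0.10, 0.09 and 0.18 in WT, LLPSEp53_1 and LLPSEp53_2.

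ELAVL3 (ENSG00000196361, chromosome 19, 11451326 to 11481046, minus strand) showed the steepest loss with LLPSEp53_1. It was at 7.03 and 7.51 CPM with p53, at 0.659, 0.804 and 0.246 CPM with LLPSEp53_1 and at 1.66, 2.72 and 1.26 CPM with LLPSEp53_2. The 3 groups did not overlap, and LLPSEp53_1 kept 7.84% of the p53 level (log2 change -3.68 ± 0.38, SE; 12.8-fold lower) where LLPSEp53_2 kept 25.9% (-1.95 ± 0.32, SE). In 2023 it was at 0.768, 0.113 and 0.325 CPM in Ctrl and 0.802, 0.721 and 0.941 CPM in WT. Ctrl replicate 1 overlapped WT there, and the log2 change was 1.04 ± 0.54 (SE), from 42 counts against 21 (ratio interval 1.20 to 3.70). That interval covers counting error only, and ELAVL3 was not called in the fit of all genes.

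ANKRD34B (ENSG00000189127, chromosome 5, 80556755 to 80570488, minus strand) was the gene with the least difference in 2023. Its Ctrl libraries were at 0.946, 0.732 and 0.542 CPM and its WT libraries at 1.15, 1.02 and 0.588 CPM, and the ranges overlapped. The log2 change was 0.32 ± 0.43 (SE), and the ratio interval from 47 counts against 39, 0.802 to 1.97, includes both directions. In 2022 it followed the others: 9.27 and 6.14 CPM with p53, 2.20, 2.14 and 0.862 CPM with LLPSEp53_1, and 1.36, 1.49 and 1.76 CPM with LLPSEp53_2. The constructs left 22.5% and 19.9% of the p53 level, with log2 changes of -2.16 ± 0.34 and -2.32 ± 0.34 (SE).

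The direct comparison of LLPSEp53_2 with LLPSEp53_1 asks whether the constructs differ from each other, and here the 10 genes did not move as a body. Their median log2 change was -0.05, with 4 above and 6 below 0, beside -0.0013 over all genes. DOC2B was the 1 gene called, lower with LLPSEp53_2 (log2 change -1.35 ± 0.25, SE), where 0.349% of all genes were called lower and 0.0229% higher. That call was lost without LLPSEp53_1 replicate 1 or 2 and without any 1 of the LLPSEp53_2 libraries. It was also lost in the fit of these 2 groups alone, with no batch term and with a replicate block. NSG1 was also lower with LLPSEp53_2 without overlap (-0.88 ± 0.17, SE). ELAVL3 (1.73 ± 0.40), CHRM4 (0.48 ± 0.23) and CABP7 (1.09 ± 0.41) were higher without overlap (SE). That makes 2 lower and 3 higher, where 7.03% of all genes were lower and 5.97% higher without overlap. The other five had overlapping libraries, with log2 changes from -0.27 for IGSF9B to 0.25 for GRIN2C. For VSTM2B the change was -0.01 ± 0.27 (SE), so that a difference of either sign within that error was not resolved.

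p53 replicate 2, of the other batch, held higher levels of most of the 10 genes. ELAVL3 was at 28.0 CPM there, 3.86 times the mean of the other two p53 libraries, and CHRM4 at 31.7 CPM, 2.54 times. GRIN2C, at 12.6 CPM, was 1.89 times that mean, ADCYAP1R1 (11.7 CPM) 1.67 times, NSG1 (29.1 CPM) 1.59 times and IGSF9B (33.9 CPM) 1.46 times. CABP7, at 8.48 CPM, was at 1.44 times, ANKRD34B at 1.36 times, DOC2B at 1.30 times and VSTM2B at 0.966 times. So 9 of the 10 stood above the mean of the other p53 libraries, and VSTM2B did not. The share of all genes above that mean was not counted. This library differed from p53 replicates 1 and 3 far beyond sampling noise (chi-square over its degrees of freedom 128 and 114). Between replicates 1 and 3 that value was 15.5. CDKN1A was 2.54 times and MDM2 2.01 times that mean. With 1 library in that batch, the batch and any other feature of the library cannot be told apart.

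Levels of different genes can be compared per kilobase of exon. With p53, CHRM4 was highest at 8.26 ± 1.39 CPM per kilobase, followed by VSTM2B (5.95 ± 1.85), NSG1 (4.21 ± 1.06) and IGSF9B (4.03 ± 0.07; SD, n = 2). CHRM4 was apart from VSTM2B by a small margin, 7.28 against 7.25 CPM per kilobase, and VSTM2B, NSG1 and IGSF9B overlapped from neighbour to neighbour. The CHRM4 exon length of 1511 bases is from a gene model that does not reach the RefSeq start site used above. Its rank therefore depends on that model. GRIN2C was lowest, at 0.780 ± 0.155. In WT the order began with CHRM4 (5.76 ± 0.85), NSG1 (2.32 ± 0.18) and IGSF9B (0.889 ± 0.197; SD, n = 3), all apart, and the other seven, from VSTM2B at 0.366 to GRIN2C at 0.171, overlapped from neighbour to neighbour except at the step above VSTM2B. In Ctrl, CHRM4 (2.50 ± 0.72), IGSF9B (0.394 ± 0.057) and ANKRD34B (0.184 ± 0.050; SD, n = 3) led, and ADCYAP1R1 was last at 0.0114. NSG1 ranked 7 of 10 in Ctrl and 2 of 10 in WT. LLPSEp53_1 was the group in which NSG1 came first, at 2.93 ± 0.16, above CHRM4 at 2.30 ± 0.61 without overlap, and in which ELAVL3 came last, at 0.120 ± 0.061 (SD, n = 3). With LLPSEp53_2, CHRM4 was first again at 3.23 ± 0.35 and GRIN2C last at 0.221 ± 0.094 (SD, n = 3).

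The closest relatives of the 10 genes mostly had few counts or passed no test, apart from ADCYAP1, the ligand gene above. GRIN3B, a more distant relative of GRIN2C, is described with the role lists. NSG2 had at most 2 counts in any library, ELAVL4 had 0 in all 15, and CHRM1, CHRM2, CHRM3 and CHRM5 had at most 8, so CHRM4 was the muscarinic receptor gene with by far the most counts. ELAVL1, the ubiquitous Hu protein gene, held 2088 to 2854 counts in every library, with log2 changes of 0.12, -0.06 and 0.02 in WT, LLPSEp53_1 and LLPSEp53_2. ELAVL2 had 6 to 10 counts in 2023 and at most 1 in 2022. The NMDA receptor genes GRIN2B and GRIN2D were detected throughout, at 46 to 323 and 358 to 1230 counts, with log2 changes of -0.07 and -0.15 in WT. GRIN1, the obligate NMDA receptor subunit gene, was at 2.37 and 5.34 CPM with p53, 1.02 to 1.61 CPM with LLPSEp53_1 and 1.10 to 1.91 CPM with LLPSEp53_2. Its log2 changes of -1.60 ± 0.39 and -1.45 ± 0.39 (SE) did not pass the test (edgeR adjusted p = 0.0992 and 0.0852). VIPR1, a receptor that also binds PACAP, had log2 changes of -0.26, -0.30 and 0.03, and DOC2A, the paralog of DOC2B, of -0.22, 0.65 and 0.76, none past the test. IGSF9, ANKRD34A and VSTM2L likewise passed no test, with log2 changes between -0.49 and -0.07 in these 3 comparisons.

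To set the 10 genes beside others of like role, 248 further genes in 11 lists of receptors, release and trafficking genes, calcium sensors, RNA-binding proteins, adhesion molecules, scaffolds and neuronal markers were read from the same fits. In WT against Ctrl, 124 passed the filter, and 6 rose (4.84%, against 3.24% of all genes) and 2 fell (1.61%, against 0.873%), with a median log2 change of -0.04. These shares lie near those of all genes, so the lists as a whole show no result in this comparison. The risers were the glutamate receptor subunit gene GRIN3B (3.37-fold, adjusted p = 1.48e-04), the muscle acetylcholine receptor subunit gene CHRND (30.2-fold, 2.58e-05, from 3 counts in Ctrl against 98 in WT), ADCYAP1, the AMPA receptor scaffold gene GRIP2 (4.12-fold, 2.30e-04), the endosomal syntaxin gene STX12 (1.36-fold, 0.0465) and the synaptic adhesion gene LRRTM1 (7.25-fold, 1.28e-04). STX1A, a syntaxin of vesicle release, fell 1.35-fold (0.0200) and LRFN1, an adhesion gene, 1.44-fold (0.0187), all by edgeR. CHRND, GRIN3B, GRIP2 and LRRTM1 passed under all 10 alternatives tried, while STX12, STX1A and LRFN1 were lost when any of 3 or more single libraries was left out. At an unadjusted p under 0.05, 13 of the 124 were higher and 8 lower (10.5% and 6.45%, against 8.94% and 9.22% of all genes). These lists were drawn up by role with earlier results of these data known, so their counts are a description.

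With LLPSEp53_1 against p53, 141 of the 248 passed the filter, 5 fell (3.55%, against 0.836% of all genes) and none rose, with a median log2 change of -0.15 and 101 of 141 below 0. An unadjusted p under 0.05 was reached by 5 higher and 25 lower (3.55% and 17.7%, against 5.72% and 7.34% of all genes). DESeq2 called 0 higher and 7 lower, beside 0.252% of all genes higher and 1.23% lower. The genes that fell were the metabotropic glutamate receptor gene GRM4 (3.83-fold, adjusted p = 0.0142), the nicotinic receptor subunit gene CHRNA4 (4.62-fold, 0.0170), ADCYAP1, the synaptotagmin gene SYT7 (2.16-fold, 0.0164) and the calcium-binding protein gene CALB2 (2.88-fold, 0.0374), by edgeR. All 5 calls were lost without p53 replicate 3, and 4 of them, all but CALB2, without p53 replicate 1. GRM4, SYT7, CALB2 and ADCYAP1 were lost without LLPSEp53_1 replicate 2, CALB2 and CHRNA4 without the batch term, and SYT7 and ADCYAP1 in the fit of the compared groups alone. These calls are therefore uncertain.

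With LLPSEp53_2 against p53, 8 of 141 fell (5.67%, against 1.83% of all genes) and none rose by edgeR, with a median of -0.11 and 85 below 0. An unadjusted p under 0.05 was reached by 4 higher and 25 lower (2.84% and 17.7%, against 4.89% and 7.94% of all genes). DESeq2 called 1 higher and 13 lower, beside 0.326% of all genes higher and 2.58% lower. GRM4 fell 6.09-fold (adjusted p = 0.00124), CHRNA4 4.66-fold (0.00729) and SYT7 2.55-fold (0.00224). The neuronal pentraxin gene NPTX1 fell 2.58-fold (0.00142), the RNA-binding protein gene CELF4 3.52-fold (0.00992), LRRTM1 2.60-fold (0.00292), the delta-type glutamate receptor gene GRID1 3.81-fold (0.0175) and CALB2 2.67-fold (0.0319). GRM4, SYT7, NPTX1 and LRRTM1 passed under all 12 alternatives. CELF4 and CHRNA4 were lost without p53 replicate 1 or 3, and GRID1 without either of these or LLPSEp53_2 replicate 1 or 3. CALB2 was lost without p53 replicate 3, without LLPSEp53_2 replicate 1 or 2 and without the batch term. CALB2 was at 23.0 and 47.3 CPM in p53 replicates 1 and 3 and at 5.05 CPM in replicate 2. Between LLPSEp53_2 and LLPSEp53_1, edgeR called none of the 141. At an unadjusted p under 0.05, 4 were higher and 10 lower (2.84% and 7.09%, against 2.73% and 4.50% of all genes). DESeq2 called 4 of the role-list genes, beside 0.0974% of all genes higher and 0.768% lower.

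**Figure D3:**
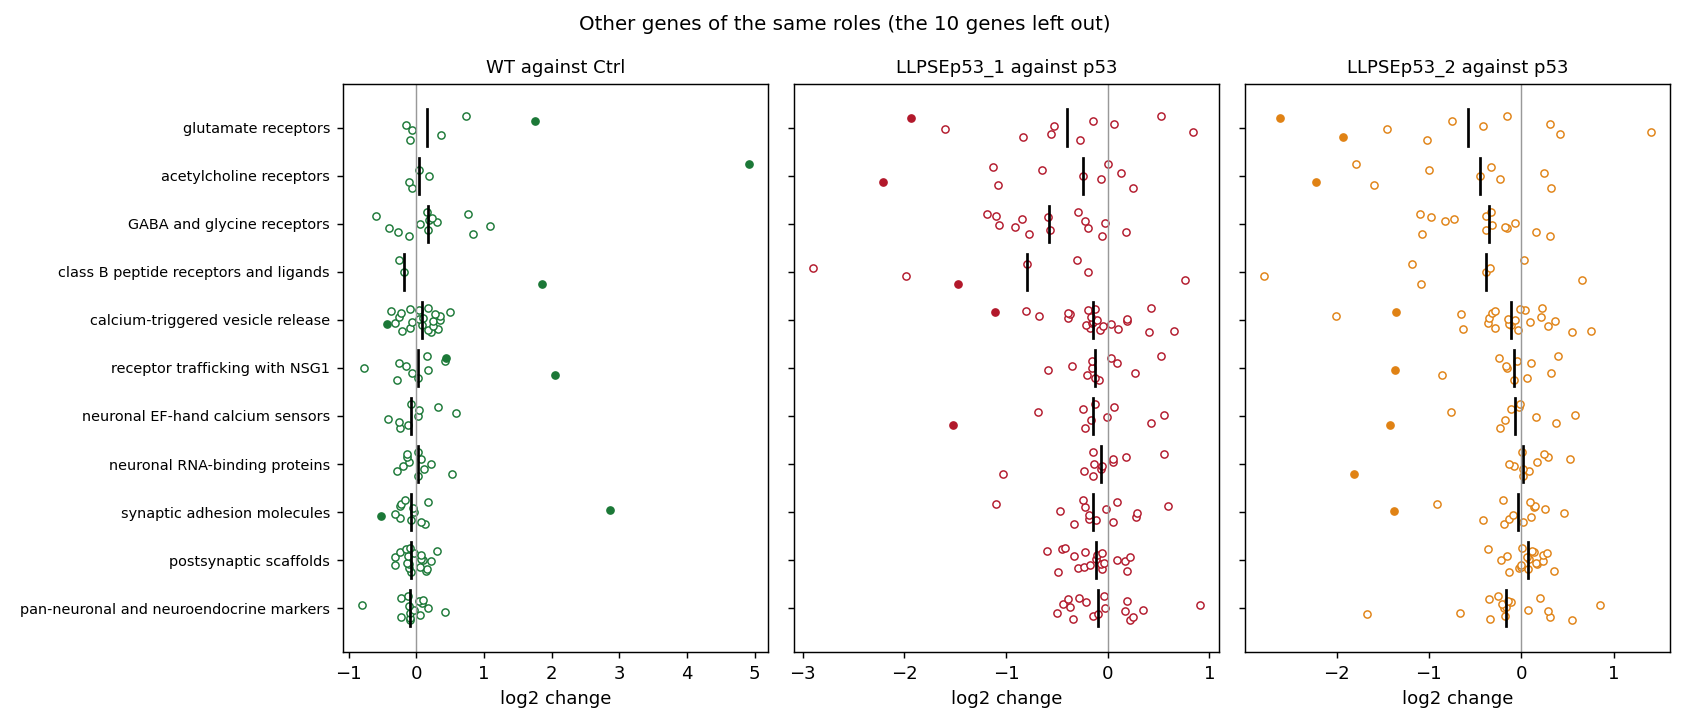
Log2 change of each of the other genes of like role that passed the filter, by list, in WT against Ctrl, LLPSEp53_1 against p53 and LLPSEp53_2 against p53 (edgeR); filled points passed the test and black ticks are list medians. In WT 6 genes lie right of 0 and 2 left among the filled points, and all filled points of the LLPSEp53 comparisons, 5 and 8, lie left of 0.

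Markers of neurons were present in every group, the control vector included. The 6 neuronal markers summed to 56.9 to 64.3 CPM in Ctrl, 62.8 to 67.1 in WT, 68.4 to 76.7 with LLPSEp53_1, 69.3 to 77.2 with LLPSEp53_2 and 71.8 to 127 over the p53 libraries, with the highest sum in replicate 2. Of the 6, 2, RBFOX3 and STMN2, were under 1 CPM in every group. The astrocyte markers summed to at most 1.88 CPM. The part of such cells or states in the differences of the 10 genes was not tested.

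Among 12915 genes whose log2 CPM averaged 1 or more in both years, those most like the mean of the 10 genes were found by Pearson's r over the 15 libraries, each gene centred within its year. They were WNT7B (r = 0.975), PARD6G (0.966), NOL4L (0.957), TBXA2R (0.955), BMP8A (0.950), SCN3B (0.950), SEMA4D (0.950) and INSYN1 (0.948). Without p53 replicate 2, over 14 libraries, their r ran from 0.929 to 0.977, and the last of them ranked 13. Such values describe a shared order of groups, since libraries of a group share their construct, and 57 genes exceeded 0.9 (33 without p53 replicate 2). WNT7B had log2 changes of 2.07 in WT, -1.68 with LLPSEp53_1 and -1.58 with LLPSEp53_2. Within the 10, IGSF9B (0.944) and GRIN2C (0.943) followed the mean of the other nine most closely, and NSG1 (0.679) least. Without p53 replicate 2 the lowest values were those of ANKRD34B (0.662) and NSG1 (0.703).

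The GC content of the transcripts of the 10 genes ran from 45.9% for ANKRD34B to 64.8% for GRIN2C, and 6 of them were among the most GC-rich genes tested, those above percentile 80 (58.7% in 2023). The median log2 change of those GC-rich genes was -0.21 in WT, 0.05 with LLPSEp53_1 and 0.06 with LLPSEp53_2. Over all genes it was -0.01, -0.0001 and 0.006. The part of GC content in the differences was not tested.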

How the data were processed

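RNA-seq libraries of H1299 cells were made from total RNA with an NEBNext kit, per the labels' protocols. The submitters' processing notes name Trimmomatic 0.39, STAR 2.7.10a and GRCh38. Which tool, annotation and strand setting gave the counts is not given in the sources that were read. Each deposited file gives 1 library as whole-number read counts by gene, which the authors left unscaled. Groups came from the sample titles; the columns of the LLPSEp53_1 files carry no construct number. Libraries of a group differed by more than sampling noise (chi-square over its degrees of freedom 7.46 to 128), and each was kept as 1 replicate.

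The counts were fitted with edgeR 4.0.16 in R 4.3.3: TMM scaling, filterByExpr, the quasi-likelihood test and Benjamini-Hochberg adjustment over all genes tested, at 0.05. The fit of WT and Ctrl used 6 libraries, that of the 2022 groups 9 with a term for the other batch. Each SE of a log2 change was derived from the test, as the absolute change over the square root of its F statistic. Where 1 group had few counts, such an SE can be smaller than counting error alone. CPM are library-scaled counts after TMM scaling within a year. Positions are from GENCODE release 29 (GRCh38), and per-kilobase levels use its exon lengths. Intervals of count ratios are exact binomial ones at 95%, from counts summed over the libraries of a group. They leave out the spread between libraries. The script was tested on simulated counts with known changes. Alternatives were DESeq2 1.42.0, relative log expression scaling, no filter, each library left out, a replicate block, no batch term, and the compared groups alone.

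The 10 genes and the role lists were chosen with earlier results of these data known. Named are the 10 genes, their closest relatives, CDKN1A and MDM2, up to 4 called genes with the smallest adjusted p per list and comparison, and the 8 genes most like the mean of the 10; the neighbours FDXR, STX18 and ZMAT5 were added after their values were seen. Some results are not reported here.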

Additional observations from a re-analysis of the deposited data

How the results depend on the processing

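Over 10 alternatives in WT against Ctrl and 12 in each comparison of 2022, the log2 changes of the 10 genes (9 in WT against Ctrl, without VSTM2B) kept their direction in 90 of 90, 120 of 120 (LLPSEp53_1 against p53), 120 of 120 (LLPSEp53_2 against p53) and 113 of 120 values (LLPSEp53_2 against LLPSEp53_1), and no called change reversed. Because the 10 genes were chosen for large changes in these same libraries, a kept direction was largely set beforehand and is no evidence of its own. Counts of calls moved more. Called genes of all kinds, role-list genes and the 10 genes numbered 665, 8 and 6 in WT against Ctrl, 155, 5 and 9 for LLPSEp53_1 against p53, 337, 8 and 10 for LLPSEp53_2 against p53, and 65, 0 and 1 between the LLPSEp53 constructs. With 1 library left out they ran from 356 to 1381, 5 to 14 and 5 to 7 in WT against Ctrl, from 0 to 568, 0 to 10 and 0 to 9 for LLPSEp53_1, from 93 to 327, 4 to 9 and 5 to 10 for LLPSEp53_2, and from 21 to 198, 0 to 3 and 0 to 2 between the constructs. The number of genes tested differed between some fits, so shares of all genes are given beside the counts. With no filter on low counts, 562 genes and 11 of the role lists were called for LLPSEp53_1 (0.553% of all genes higher, 0.956% lower). There, 823 and 20 were called for LLPSEp53_2 (0.596% and 1.61%), and 235, 5 and 3 of the 10 between the constructs (0.11% and 0.521%). DESeq2 called 258 genes for LLPSEp53_1 (0.252% of all genes higher, 1.23% lower) and 507 and 14 for LLPSEp53_2 (0.326% and 2.58%). Between the constructs it called 151, 4 and 3 (0.0974% and 0.768%). Relative log expression scaling called 69 genes between the constructs (0.0229% of all genes higher and 0.372% lower), 2 of the 10 among them. With no batch term, 94 genes were called for LLPSEp53_1, and 3 with 0 of the 10 between the constructs. Fits of the compared groups alone called 64 and 3 for LLPSEp53_1 (0.0296% of all genes higher, 0.35% lower) and 1040 and 22 for LLPSEp53_2 (1.7% and 4.45%). Between the constructs they called 35 with 0 of the 10 (0.018% and 0.192%).

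Whether replicate numbers pair the libraries cannot be settled with 3 libraries per group. Correlations of same-numbered deviations were 0.021 to 0.247 in 2023, all positive, and -0.385 to 0.181 in 2022. With the replicate block, 1645 genes and 13 of the role lists were called in WT against Ctrl (5.53% of all genes higher, 4.65% lower). For LLPSEp53_1, 40 and 3 were called (0.0115% and 0.218%), for LLPSEp53_2 183, and between the constructs 33 with 0 of the 10. The cause of these shifts was not tested, apart from the number of genes or libraries that each alternative changes by construction. In the 2022 fits p53 had 2 libraries in the shared batch, and in Ctrl NSG1, DOC2B, ADCYAP1R1 and VSTM2B had 10 or fewer counts in all. The block also ended the LLPSEp53_1 calls of GRM4 and SYT7.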
